A study of Mus musculus with 31 samples.

Results

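B2m, taken here as the reference of the study's RT-qPCR assays of mRNA because their legends name it while the methods do not state it, was examined in mouse embryonic eyes together with 8 other genes that are in common use for the same purpose: Gapdh, Actb, Ppia, Tbp, Ywhaz, Gusb, Sdha and Hprt. The members were all array probes that carry 1 of these 9 names among 34832 distinct gene names, which gave 20 of 55681 probes, and each probe was followed apart. B2m was included because it was known to be higher in the mutant females of these same arrays, so its female values are a description and were not tested. A total of 19 of the 20 probes, from all 9 genes, exceeded the minimum of 500 units of mean signal in WT females, as did 14052 probes in all.

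The eyes came from embryos at embryonic day 13.5 on a C57BL/6N background with the pigmented epithelium taken off before RNA extraction, and the mutant eyes were those that the study classed by appearance as type 1, its normal class. Ftx is a long non-coding RNA gene of the X-inactivation centre, and its deletion is present in every cell of the mutants, which also lose the microRNAs encoded within the deleted gene. WT females, WT males and hemizygous Ftx-/Y males gave 3 eyes each with 1 array per eye, and homozygous Ftx-/- females gave 11 eyes with 2 arrays per eye, for 20 eyes and 31 arrays. The labels do not say whether eyes came from separate litters, so every p-value here measures the spread between these eyes.

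A reference gene stands for the amount of cDNA in a reaction: the target is divided by it, and any change in the reference passes into the ratio with the opposite sign. The 9 genes are expressed in nearly all cells but do different work. B2m encodes the light chain that pairs with MHC class I heavy chains at the cell surface. Gapdh, a glycolytic enzyme, and Sdha, the flavoprotein subunit of succinate dehydrogenase in the mitochondrial inner membrane, belong to energy metabolism. Actb encodes cytoplasmic beta-actin, Ppia the peptidyl-prolyl isomerase cyclophilin A, Tbp the TATA-binding protein, Ywhaz the 14-3-3 zeta adaptor, Gusb lysosomal beta-glucuronidase, and Hprt a purine salvage enzyme encoded on the X chromosome.

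The sequences that the results turn on are shown from the array design, 5′ to 3′ on the strand of the transcript, with G and C in capitals because base composition varied with the differences described below. The first lines are the first 30 bases of probes of B2m, Sdha, Tbp and Gusb, and the rest are whole probes.
B2m A_51_P129012: ttGaaCCtGCttaattaCaaatCCaGtttC
Sdha A_55_P2012974: CCaGaCtttGtCtCtttattCttGtGCaGt
Tbp A_55_P2032034: GtaCataCttttCtttCttCaGaGtaCtCt
Gusb A_51_P211491: ttaGttttttGGCCttGGCtttGtGaaCtC
Gusb A_52_P160936: tttGCaaGGaaGtGaGGaCCaatGaCaGGt
Tbp A_51_P461828: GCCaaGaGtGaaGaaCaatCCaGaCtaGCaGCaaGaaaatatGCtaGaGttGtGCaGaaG
Ywhaz A_55_P1987245: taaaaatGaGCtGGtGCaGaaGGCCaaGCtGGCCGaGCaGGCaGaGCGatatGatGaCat
Ywhaz A_52_P225260: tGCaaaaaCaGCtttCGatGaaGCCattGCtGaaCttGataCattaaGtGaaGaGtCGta
Gapdh A_55_P2088912: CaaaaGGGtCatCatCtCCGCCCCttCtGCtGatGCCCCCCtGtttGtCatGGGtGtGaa

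In mm9, the build that the file headers name, the stretch of the B2m probe lies at chr2:121978401-121978430 on the plus strand, that of Sdha at chr13:74460340-74460369 on the minus strand, and those of Gusb at chr5:130465163-130465192 and, upstream on the same minus strand, at chr5:130475585-130475614. On the plus strand, the stretch of Tbp A_55_P2032034 lies at chr17:15654250-15654279 and the whole of A_51_P461828, with an interruption that makes the 60 bases span 668, at chr17:15650578-15651245. On the minus strand, the Ywhaz probes lie at chr15:36720668-36720727 and chr15:36705040-36705180 and the Gapdh probe at chr6:125112979-125113038. The upstream Gusb probe is tied to Ensembl transcripts and to no RefSeq mRNA in the files, whereas the downstream one is tied to the RefSeq mRNA, and the pair share none of the accessions listed for them. No annotation of mm9 was used here, so exons and untranslated regions are not assigned.

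Several Gapdh probes end in near-identical sequence, and the design places 3 of the 8 at loci other than the Gapdh gene on chromosome 6. The same 30 bases of 3 of them are set side by side, with bases unlike the first in capitals.
Gapdh A_55_P2097548: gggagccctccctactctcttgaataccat
Gapdh A_55_P2081133: gggagccctccctaTtctTttgaataccat
Gapdh A_55_P2186027: gggagccctAcctactctcttgaataccat
These stretches differ from the first at 2 and 1 of 30 positions. Over all overlapping bases, A_55_P2081133 matched A_55_P2097548 at 40 of 44 and A_55_P2186027 matched it at 49 of 53. A_55_P2097548 is placed on chromosome 7, A_55_P2186027 on the X chromosome, A_55_P2037425 on chromosome 8 and the other 5 on chromosome 6. Gapdh values are therefore uncertain as to which copy they report, since transcripts of near-identical copies could bind the same probe.

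Depth and labels were checked over all arrays. The median processed signal of an array lay between 34.2 and 75 units, and 48.2 to 70.4% of probe spots were well above background. The probe for the Ftx transcript averaged 101 units in WT females and 106 in WT males, against 16.5 in Ftx-/Y males and 21.7 in Ftx-/- females. The lens markers that define this tissue were bright, with a mean signal of 128800 to 139700 in WT females. The 4 slides did not hold the groups evenly: slide 1 held all 6 WT eyes and 1 Ftx-/Y eye, slide 2 held 2 Ftx-/Y and 3 Ftx-/- eyes, and slides 3 and 4 held the other 8 Ftx-/- eyes. No slide held both WT and Ftx-/- females, so that in females slide and genotype cannot be told apart.

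B2m had its lowest level in WT females and its highest in Ftx-/- females. Its normalized signal, on a linear scale after quantile-spline normalization, was 2187, 2036 and 1961 in WT females 1, 2 and 4. It was 2542, 2309 and 2699 in the 3 WT males and 2786, 2971 and 2621 in the 3 Ftx-/Y males. In the 11 Ftx-/- females the lowest value was 2884, the median 3354 and the highest 4358. Every Ftx-/- female eye lay above all WT female eyes, and the WT female and WT male ranges did not overlap either.

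**Figure D1:**
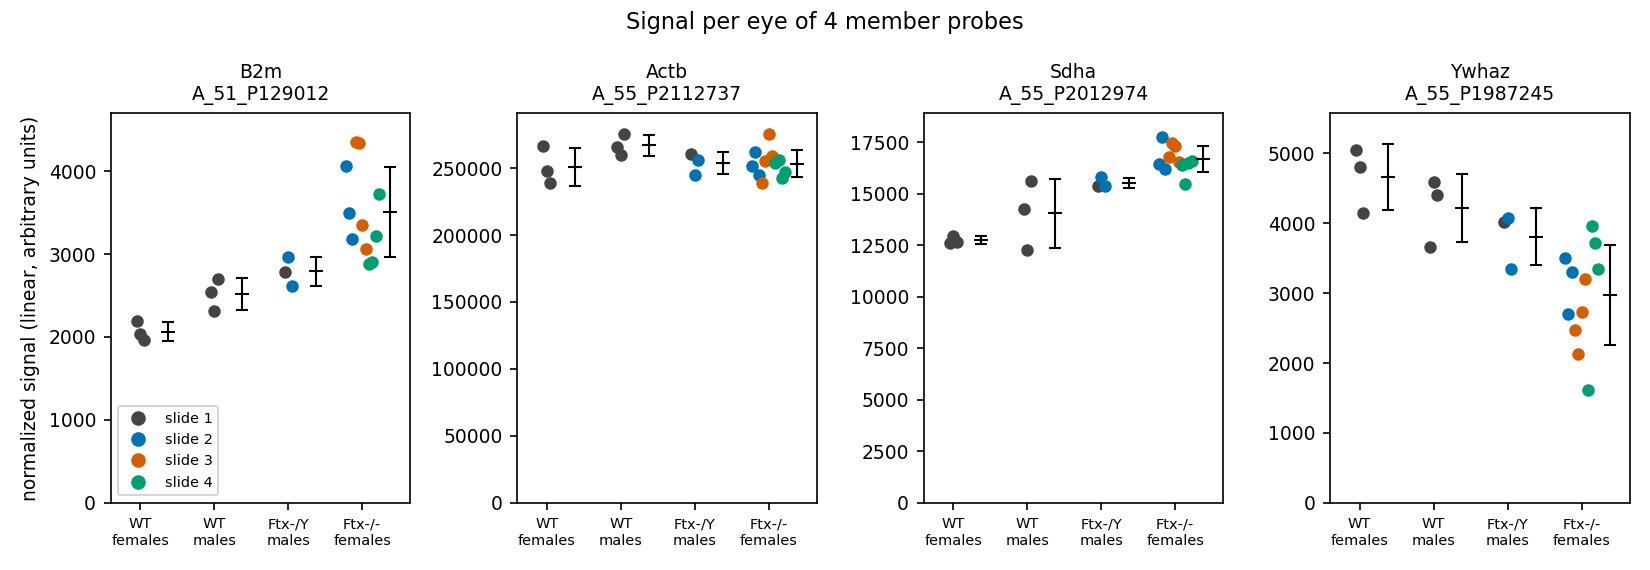
Normalized signal (linear, arbitrary units, axis from 0) of 1 probe each of B2m, Actb, Sdha and Ywhaz in every eye, with points coloured by slide and the group mean ± SD beside them. B2m rises from 2061 in WT females to 3507 in Ftx-/- females, Actb stays between 238670 and 275370 in all eyes, Sdha of Ftx-/- females lies above all WT females, and the Ywhaz probe of Ftx-/- females lies below all WT females.

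Group means of B2m were 2061 ± 115 in WT females, 2517 ± 197 in WT males, 2792 ± 175 in Ftx-/Y males (SD, n = 3 each) and 3507 ± 544 in Ftx-/- females (SD, n = 11). The female difference was 0.75 on the log2 scale (SE 0.11, 95% interval 0.51 to 0.99), or 1.69-fold. Split by slide, the Ftx-/- females exceeded the WT females by 0.79 on slide 2, 0.86 on slide 3 and 0.62 on slide 4. Between males, which played no part in the choice of B2m, Ftx-/Y exceeded WT by 0.15 (SE 0.14, interval -0.15 to 0.45), and the limma test with Benjamini-Hochberg adjustment over all 14052 probes did not separate them (adjusted p = 0.712). As descriptions without a test, the WT females stood at a log2 difference of -0.29 (SE 0.14) from the WT males, and the Ftx-/- females at 0.32 (SE 0.11) from the Ftx-/Y males, with 9 of 11 above all Ftx-/Y eyes.

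Within slide 1 the single Ftx-/Y eye exceeded the WT males by 0.15, and within slide 2 the Ftx-/- eyes exceeded the Ftx-/Y eyes by 0.35 in B2m log2 signal. Both comparisons between the sexes share eyes with the female and the male one, so they are values set side by side and not separate evidence. In bulk tissue, fewer cells of a type and less RNA per cell cannot be told apart.

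Of the 18 other member probes above the minimum, 6 passed an adjusted p of 0.05 between Ftx-/- and WT females, 3 of them higher and 3 lower, beside 35.0% of all probes tested. Sdha, Tbp and Hprt were the 3 genes with a higher probe, and Gusb, Ywhaz and Gapdh were the 3 with a lower one. The median absolute log2 difference of the 18 was 0.14, against 0.19 over all probes. By the cut used in the study, a fold change above 1.2 or below 0.8 with an unadjusted p under 0.05, 4 of the 18 were called beside 26.7% of all probes. Both shares of members called were close to or below those of all probes.

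**Figure D2:**
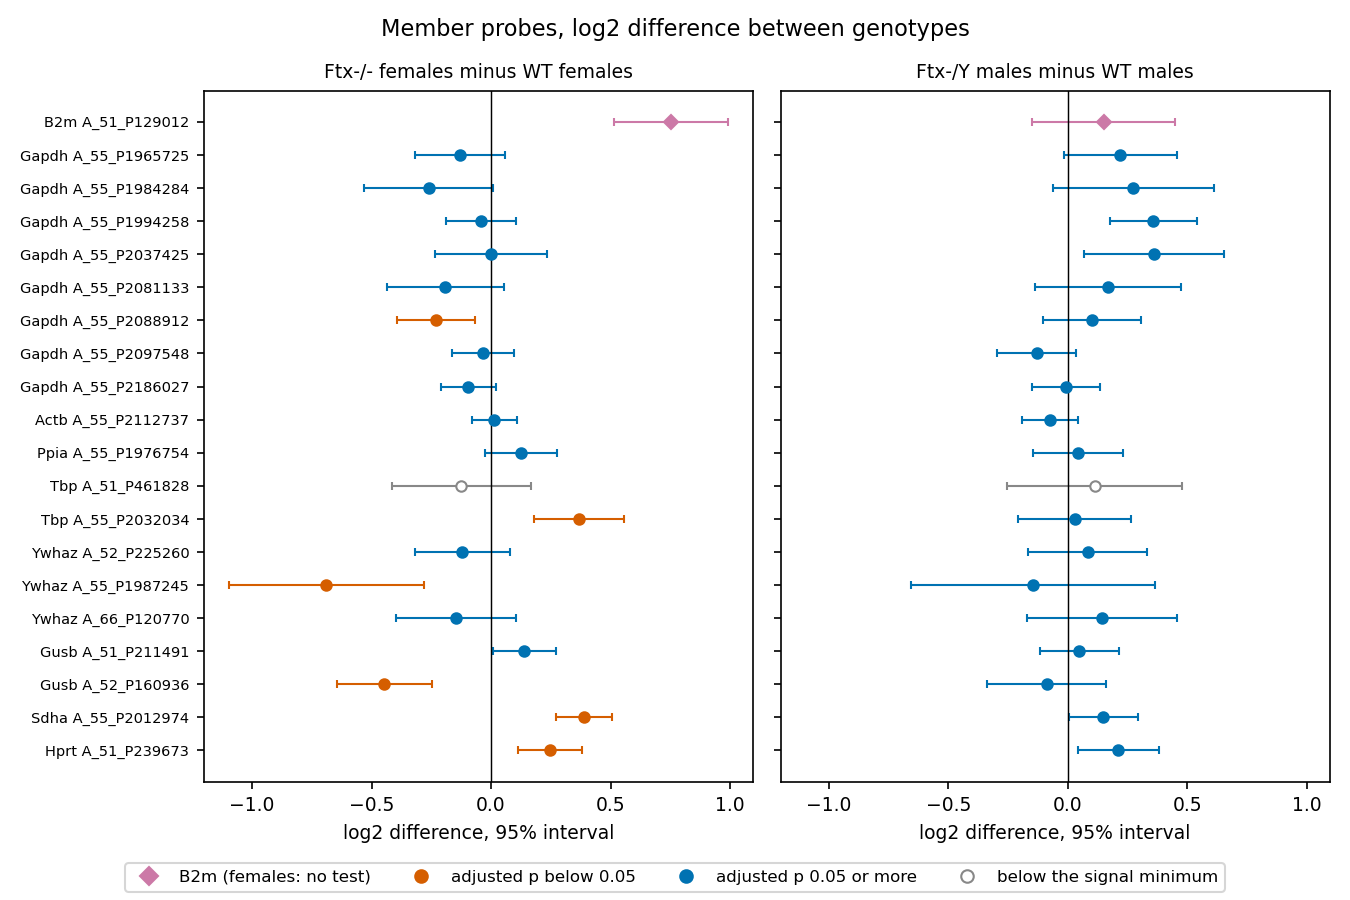
Log2 difference between genotypes with its 95% interval for all 20 member probes, in females on the left and males on the right. In females 6 probes other than B2m pass an adjusted p of 0.05, from -0.69 for a Ywhaz probe to 0.39 for Sdha, and in males none does.

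Sdha showed the smallest error of the 6. Its signal was 12619, 12965 and 12643 in the WT females and ran from 15500 through a median of 16536 to 17757 in the Ftx-/- females. All 11 mutant eyes lay above all WT female eyes, and the log2 difference was 0.39 (SE 0.06, adjusted p = 9.25e-05). Ftx-/Y males, at 15396, 15820 and 15365, were also above the WT female range, while the WT males spread from 12298 to 15621. The male difference of Sdha was 0.15 (SE 0.07, adjusted p = 0.413).

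The downstream Tbp probe, A_55_P2032034, gave 1195, 1071 and 1117 in WT females and 1251 to 1818, with a median of 1397, in Ftx-/- females. The groups did not overlap, and the log2 difference was 0.37 (SE 0.09, adjusted p = 0.0043). WT males, at 1242 to 1494, also lay above all 3 WT females. Hprt, measured by a probe printed 10 times on each array, was 6400 to 7342 in WT females and 7316 to 9589 in Ftx-/- females, with 10 of 11 mutant eyes above the WT female range. Its difference was 0.25 in females (SE 0.06, adjusted p = 0.00615) and 0.21 in males (SE 0.08, adjusted p = 0.327), where all 3 mutants lay above all 3 WT eyes.

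Among the lower probes, Ywhaz A_55_P1987245 varied most. It gave 5054, 4804 and 4143 in WT females and from 1614 through a median of 3208 to 3956 in Ftx-/- females. All 11 mutant eyes lay below the WT females, by -0.69 on the log2 scale (SE 0.19, adjusted p = 0.0106). The remaining Ywhaz probes differed by -0.12 (A_52_P225260, adjusted p = 0.339) and -0.15 (A_66_P120770, adjusted p = 0.356).

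The upstream Gusb probe, A_52_P160936, gave 1259, 1090 and 1035 in WT females and 658 to 945 in Ftx-/- females, with a median of 851 and no overlap (-0.45, SE 0.09, adjusted p = 0.0016). The downstream Gusb probe, A_51_P211491, printed 10 times per array, pointed the other way, from 1605 to 1824 in WT females to 1721 to 2172 in Ftx-/- females (0.14, SE 0.06, adjusted p = 0.0944). Gapdh A_55_P2088912 gave 46868, 44968 and 48474 in WT females and 35123 to 48358, median 39460, in Ftx-/- females. It lay below the WT range in 10 of 11 mutant eyes (-0.23, SE 0.08, adjusted p = 0.028).

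The other 7 Gapdh probes had female log2 differences from -0.26 (A_55_P1984284, adjusted p = 0.124) up to -0.03 (A_55_P2097548, adjusted p = 0.697) and -0.0013 (A_55_P2037425, adjusted p = 0.994). Actb had the narrowest interval, at 0.01 (-0.08 to 0.11, adjusted p = 0.834), with 238670 to 266420 units in WT females and 238690 to 275160 in Ftx-/- females. Ppia, at 216270 to 233020 in WT females and 216010 to 266870 in Ftx-/- females, differed by 0.12 (-0.03 to 0.28, adjusted p = 0.188). The second Tbp probe, A_51_P461828, stayed under the minimum at 147 ± 30.8 in WT females (SD, n = 3) and 134 ± 16.1 in Ftx-/- females (SD, n = 11), although it was well above background on all arrays. Its difference in a fit over all probes was -0.13 (SE 0.14, adjusted p = 0.578).

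Sdha, Tbp and the upstream Gusb probe kept their calls whichever WT or Ftx-/Y eye was left out, and the other 3 calls did not. Without WT female 1, which left 22.5% of all probes called, 3 of the 18 probes passed, with Hprt at 0.20 (adjusted p = 0.0583), the Ywhaz probe at -0.63 (0.0619) and the Gapdh probe at -0.23 (0.0896), and the Gapdh call was also lost without WT female 2 (adjusted p = 0.0518) or WT female 4 (0.115). With slide as a fixed block, where the female difference rests on the single mutant male of slide 1, 0 of 18 passed, beside 0.0783% of all probes. The differences of Sdha (0.38, SE 0.12), Gusb (-0.45, SE 0.20) and Hprt (0.38, SE 0.13) were then about as large or, for Hprt, larger with wider errors, whereas Tbp fell to 0.14 (SE 0.16) and Ywhaz stood at -0.44 (SE 0.45). With slide as a random block 3 of 18 passed, beside 17.5% of all probes.

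In males 0 of 19 member probes passed an adjusted p of 0.05, beside 0.0213% of all probes, which is 3 probes, and 2 passed the fold-change cut beside 5.69%. Those 2 were Gapdh A_55_P1994258, 0.36 higher in Ftx-/Y males (SE 0.09, unadjusted p = 0.000573, adjusted p = 0.177), and A_55_P2037425, also 0.36 higher (SE 0.14, unadjusted p = 0.0188, adjusted p = 0.336). A_55_P1994258 gave 13905 to 14891 units in WT males and 16786 to 19417 in Ftx-/Y males with no overlap. Without WT male 3, 1 of 19 was called, beside 2.58% of all probes. Of the 18 probes other than B2m, 0 passed between WT females and WT males, beside 0.0712% of all probes, and 0 passed between Ftx-/- females and Ftx-/Y males, beside 1.96%. When the genotype effect was compared between the sexes, limma called 0% of all probes, with 1946 probes under an unadjusted p of 0.05, so none of the 18 probes other than B2m was shown to change differently in the sexes. For B2m, as a description without a test, the female difference exceeded the male one by 0.60 (SE 0.18). This value holds the female difference for which B2m was chosen, and in females slide and genotype cannot be told apart.

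Probes of the same gene were then compared within each eye. The labelling chemistry primes from the poly(A) tail, so a probe far from the 3′ end needs a longer copy of the RNA. The Gusb probes may belong to different transcripts, since they share no listed accession, and this was not tested. In Ftx-/- females the 3′ Gusb probe gained on the 5′ probe by 0.58 ± 0.15 (SD, n = 11) relative to the WT female mean, with a range of 0.33 to 0.81 that lay above all WT females (-0.09 to 0.16). Ftx-/Y males, at 0.28 to 0.42, also lay above the WT females, and WT males, at 0.11 to 0.42, overlapped both mutant groups. For Tbp the gain was 0.49 ± 0.22, ranging from 0.16 to 0.89, but it was 0.50 ± 0.18 in WT males, which were on the same slide as the WT females. For Ywhaz, from A_55_P1987245 to A_66_P120770, the gain was 0.54 ± 0.56, from -0.17 to 1.88, and overlapped the WT females. For Gapdh, whose A_55_P1994258 and A_55_P2081133 lie within the same gene, the difference was -0.15 ± 0.13.

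**Figure D3:**
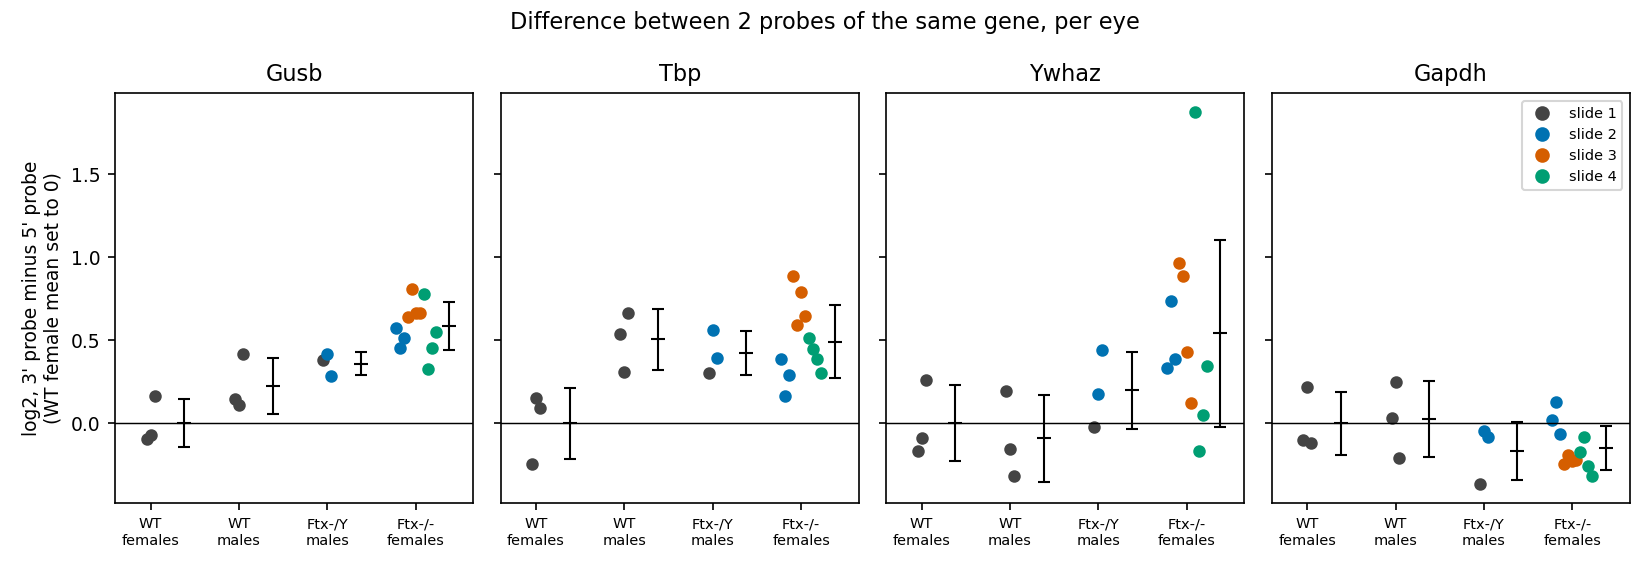
Log2 signal of the 3′ probe minus that of the 5′ probe of the same gene in every eye, with the WT female mean set to 0, points coloured by slide and the group mean ± SD beside them. For Gusb all Ftx-/- females lie above all WT females, for Tbp the WT males lie as high as the mutants, and for Ywhaz and Gapdh the groups overlap.

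Over 1044 genes with probes 1 to 500 kb apart, the 3′ probe gained on the 5′ probe by a median of 0.15 in females, with 69.9% of genes above 0. In males the median was -0.01 and 47.8% lay above 0. Per eye, the median over these genes was -0.07 to 0.01 in WT females, 0.01 to 0.07 in WT males, 0.00 to 0.04 in Ftx-/Y males and 0.02 to 0.22 in Ftx-/- females. The female gains of Gusb and Ywhaz stood at the 90.5 and 87.9 percentiles of these genes, and that of Gapdh, from A_55_P1994258 to A_55_P1984284, at -0.22, stood at the 11.6 percentile. The part of this shift in the member calls was not tested. This comparison was chosen after the probes' values were seen.

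Base composition moved with the female differences as well. Across the tested probes the median female log2 difference was 0.33 for probes with under 30% G and C, 0.18 at 30 to 35%, 0.14 at 35 to 40%, -0.24 at 50 to 55% and -0.46 at 60% or more. Among members other than B2m, 4 of 5 probes under 40% and 1 of 12 at 45% or more had a positive difference. The B2m probe holds 31.7% G and C, Sdha, Tbp A_55_P2032034 and Ppia 35% and Hprt 36.7%, whereas Ywhaz A_55_P1987245 holds 51.7% and Gapdh A_55_P2088912 55%. After the trend with base composition was removed in each eye, the B2m difference was 0.53 (SE 0.12), Sdha 0.24 (adjusted p = 0.00366), Tbp 0.22 (0.0335) and the upstream Gusb probe -0.35 (0.00672). Hprt fell to 0.13 (0.152), the Ywhaz probe to -0.43 (0.0968), and Gapdh A_55_P2088912 turned to 0.10 (0.395). Gapdh A_55_P2037425 then passed at 0.33 (0.0423).

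How steady a gene was over all 20 eyes depended on the scaling of the arrays. The SD of the log2 signal over 20 eyes was 0.06 for Actb, with a 1.15-fold range from the lowest eye to the highest, and this lay at the 0.335 percentile of all probes, whose median SD was 0.17. Gapdh A_55_P2186027 (0.08), Gapdh A_55_P2097548 (0.09), Ppia (0.11) and the downstream Gusb probe (0.12) followed. Ywhaz A_55_P1987245, at 0.41 and 3.13-fold, stood at the 91.7 percentile. B2m, at 0.33 and a 2.22-fold range, stood at the 87.5 percentile, a value that holds the female difference for which it was chosen. Within groups its SD was 0.18, at the 67.9 percentile, below those of Ywhaz A_55_P1987245 (0.32), Gapdh A_55_P1984284 (0.21), Ywhaz A_66_P120770 (0.19) and Gapdh A_55_P2081133 (0.19). A total of 10 of the 19 probes were below the median SD of all probes.

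The 4 steadiest probes were also the 4 brightest members, at ranks 29 (Actb), 41 (Ppia), 86 and 100 (Gapdh) of 14052 in mean signal, and none was saturated. Scaling each array only by its 75th percentile raised their SDs to 0.18, 0.25, 0.22 and 0.20 in that order. Actb then ranked 10th of 19 and the downstream Gusb probe 1st, with an SD of 0.13, followed by 3 Gapdh probes at 0.13 to 0.14. B2m and Ywhaz A_55_P1987245 remained the 2 most variable, at 0.34 and 0.39. In the deposited table, which has no scaling between arrays, the order differed again, with B2m (0.48) and Sdha (0.34) the most variable, Ywhaz A_55_P1987245 12th of 19 (0.26) and Gapdh A_55_P1984284, 17th after quantile-spline, 1st (0.18). Ppia also differed between the 2 arrays of the same Ftx-/- eye, with an SD of 0.20 against 0.04 for Actb and 0.06 for B2m.

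**Figure D4:**
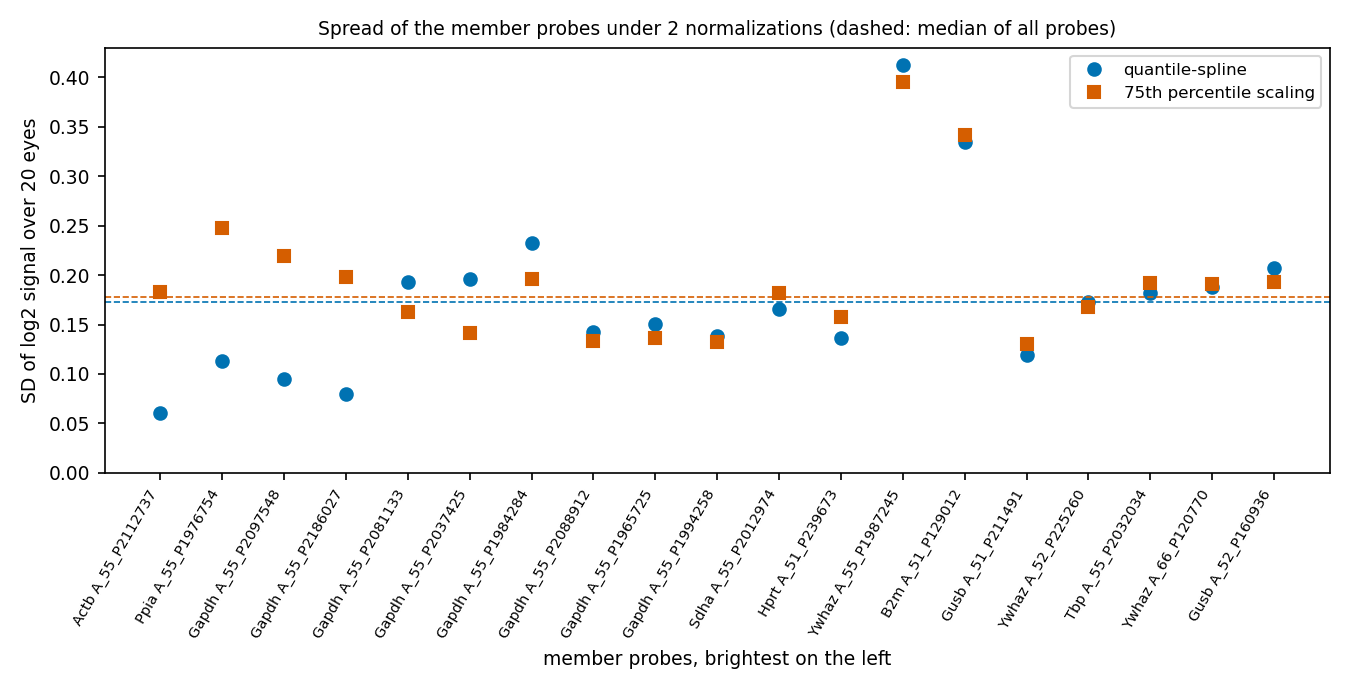
SD of log2 signal over 20 eyes (axis from 0) for the 19 member probes above the minimum, ordered from the brightest, after quantile-spline normalization (circles) and after scaling by the 75th percentile (squares), with dashed lines for the median of all probes. The 4 brightest probes move from 0.06 to 0.11 up to 0.18 to 0.25, whereas B2m stays at 0.33 to 0.34.

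Ratios between genes were compared next, after the same quantile-spline normalization. With the probes of a gene averaged, the mean SD of the log2 ratio to the other 8 members was lowest for Actb (0.18), Hprt (0.19), Ppia (0.19) and Sdha (0.20), and highest for B2m (0.33). Sdha and Hprt were the closest pair, with an SD of 0.10 over 20 eyes, and B2m and Ywhaz were the farthest apart, at 0.46. Under scaling by the 75th percentile, chosen for the ratios after seeing the data, Hprt, Gapdh, Gusb and Sdha had the lowest values (all 0.23), Actb had 0.25 and Ppia 0.29, B2m remained highest at 0.36, and Sdha and Hprt remained the closest pair at 0.11. Under both scalings the B2m values hold the female difference for which B2m was chosen, and B2m is a partner in the mean of every other gene. After quantile-spline, the SDs of the B2m ratios ran from 0.21 (Sdha) to 0.46 (Ywhaz) over 20 eyes. In WT eyes alone they ran from 0.08 (Tbp) to 0.28 (Gusb). The ratio of B2m to Actb differed by 0.74 between Ftx-/- and WT females, and that of B2m to Sdha, which rose in the same eyes, by 0.36. With the 75th percentile these were 0.97 and 0.37. The correlation of B2m with Sdha was 0.87, and 0.46 on deviations from the group means. These correlations are over 20 eyes that share slides and groups and carry no test.

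The choice of reference set the female difference of 3 X-linked genes among those that the study assayed by RT-qPCR. In those assays, with B2m taken as the reference, the study found Tmem29 and Ogt significantly higher in Ftx-/- than in WT eyes. It found no significant increase of Gab3 and presumed low expression, a non-ideal probe or both. On the arrays, with no reference, the log2 differences between Ftx-/- and WT females were 0.64 for Tmem29, 0.63 for Ogt and 0.99 for Gab3. The limma adjusted p was 3.08e-05 for Tmem29, 0.00686 for Ogt and 0.155 for Gab3, which spread widely, at 9931 ± 5890 in Ftx-/- females (SD, n = 11) against 4162 ± 280 in WT females (SD, n = 3), with 9 eyes above and 1 below the WT range. The second Gab3 probe stood at 17.9 units in WT females and was well above background on 13 of 31 arrays. In males the brighter Gab3 probe differed by 0.83 (adjusted p = 0.657). Relative to B2m in the same eye, the 3 female differences were -0.11, -0.12 and 0.23. Against Actb they were 0.63, 0.62 and 0.97, and against Sdha 0.25, 0.25 and 0.60. Tmem29 lay above all WT females in 11 of 11 mutant eyes with no reference, with Actb or with Sdha, and in 1 of 11 with B2m. Ogt did so in 10 of 11 with no reference, 3 with Sdha and 1 with B2m, and Gab3 in 9, 8 and 7.

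Xist, the RNA that coats the inactive X chromosome, was given by the mean of 2 probes, which differed in size at -0.25 (A_52_P113537, adjusted p = 0.223) and -0.63 (A_52_P300376, adjusted p = 0.013). The difference of the mean was -0.44 with no reference, -1.20 relative to B2m, -0.83 relative to Sdha and -0.12 relative to Ywhaz. These are array ratios and not RT-qPCR values, and the values relative to a reference carry no test because B2m was chosen on this contrast.

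**Figure D5:**
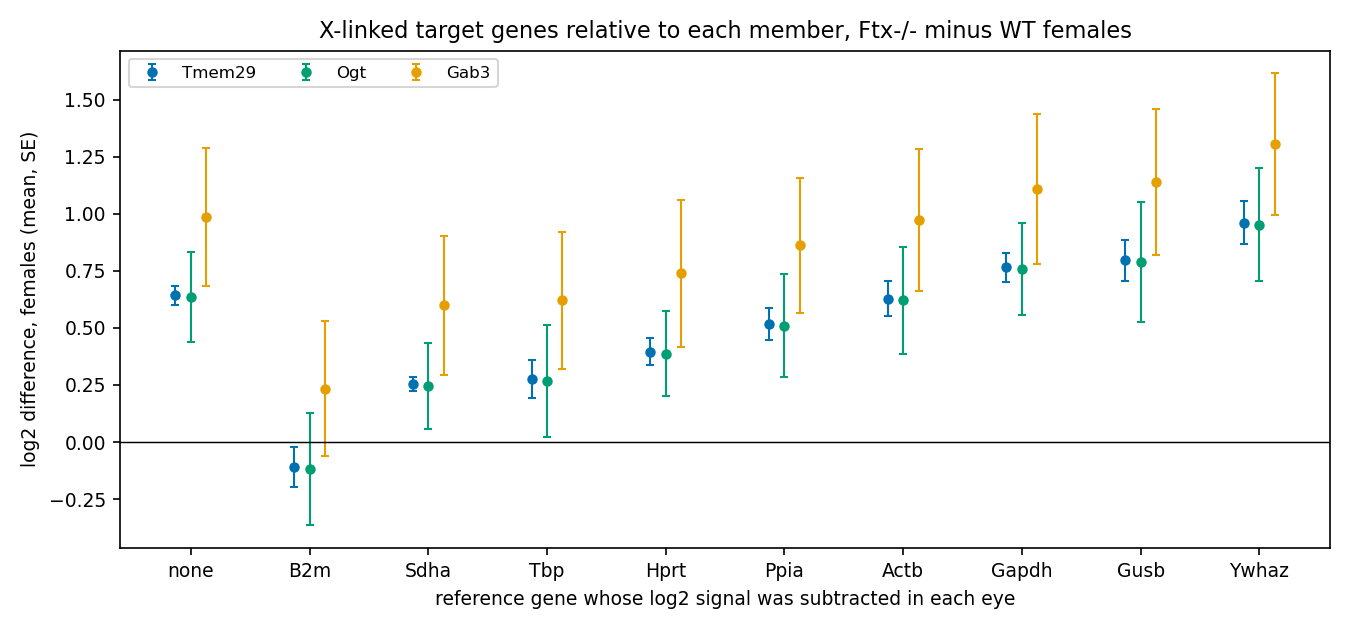
Log2 difference between Ftx-/- and WT females (mean with SE) of 3 X-linked genes (Tmem29, Ogt and Gab3), with no reference and after subtraction of each member's log2 signal in the same eye. All 3 lie above 0 with every reference but B2m, where Tmem29 lies at -0.11, Ogt at -0.12 and Gab3 at 0.23.

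The genes whose level followed B2m most closely were found by the Pearson correlation over 20 eyes among 14012 other probes. Mrpl27, a mitochondrial ribosomal protein (0.94), Cxcr7, a chemokine receptor (0.94), the unnamed probe A_55_P1993390 (0.92), Txnip, a thioredoxin-binding protein (0.91), and Gmds, an enzyme of GDP-fucose synthesis (0.91), came first. On deviations from the group means the same 5 gave 0.74, 0.81, 0.68, 0.73 and 0.78. A total of 0.0428% of the probes had a correlation above 0.9.

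In females 16.8% of all probes were called higher and 18.2% lower, which the following counts are set beside. Of 24 listed genes of MHC class I antigen presentation, 10 had a probe above the minimum, and of their 11 probes 0 were higher and 3 lower in Ftx-/- females, with a median of -0.11. These were the proteasome activator Psme1 (-0.36, adjusted p = 0.000388), the heavy chain H2-K1 (-0.36, adjusted p = 0.0297) and the chaperone Calr (-0.41, adjusted p = 0.0221). H2-K1 spread widely in WT females, at 793.5 ± 300 (SD, n = 3), against 590.4 ± 27 in Ftx-/- females (SD, n = 11). Of 5 probes for interferon-induced genes 0 were called. In males 0 of either list were called.

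Among 66 probes of 41 further genes used as references, 3 were higher and 3 lower in females, with a median of 0.01. The higher were the elongation factor Eef2 (0.51, adjusted p = 0.000274), the X-linked glycolytic enzyme Pgk1 (0.29, adjusted p = 0.0164) and Alas1 (0.14, adjusted p = 0.0191), and the lower were Tubb5 (-0.38, adjusted p = 0.00073), Polr2a (-0.36, adjusted p = 0.0316) and Cxxc1 (-0.29, adjusted p = 0.0454), with Alas1 and Cxxc1 named after their values were seen to complete the count. Pgk1 also differed by 0.41 in males (adjusted p = 0.225), and the study treated it as a gene that is not upregulated. Among 45 probes for partners and relatives of the members, 14 were higher and 6 lower, with a median of 0.08. A probe each of the cyclophilins Ppig (0.56, adjusted p = 3.08e-05), Ppic (0.43, adjusted p = 0.00457) and Ppid (0.43, adjusted p = 0.00119) rose, although 1 further probe of Ppig and 2 of 3 further probes of Ppid did not pass, whereas Taf6, a TFIID subunit that works with Tbp, fell by 0.43 (adjusted p = 0.00128).

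Among markers of cell types, the lens list had a larger share of lower calls than all probes, and the other lists gave small counts. Of 20 lens probes 17 were lower and 0 higher, and the mean lens signal was 91580 to 126400 in Ftx-/- females, below all WT females. Of 9 macrophage probes 1 was higher, Cx3cr1 (0.52, adjusted p = 0.00154). The mean signal of the macrophage list was 3487 to 3859 in WT females and 1288 to 3901 in Ftx-/- females, and its brightest probe, Itgam, named after its values were seen, averaged 23560 and 12250 (adjusted p = 0.0547). This probe weighs most in the list mean, which is on a linear scale, while other Itgam probes stood at 31.7 and 52.9 units in WT females. Apart from Cx3cr1 and Itgam, the differences ran from -0.26 (Fcer1g, adjusted p = 0.19) to 0.11 (Ctss, adjusted p = 0.612), both named after their values were seen. Of 8 erythroid probes 3 were higher, from Hbb-bh1 and Hbb-y, and of 6 endothelial probes 1 was lower, from Kdr (-1.21, adjusted p = 0.00488), while another Kdr probe, also named after its value was seen, stood at 0.19 (adjusted p = 0.0592). The erythroid median was 0.23 in females and 0.94 in males, where 0 were called. Its list mean was 35200 to 46060 in WT males and 52350 to 110800 in Ftx-/Y males. Retinal markers gave 3 higher and 2 lower of 12, and muscle markers had no probe above the minimum. Pigment epithelium markers gave 1 higher of 4, from Mitf (0.73, adjusted p = 0.0184, above the WT female mean in 10 of 11 eyes and so named outside the rule), with a list mean of 1374 to 2038 in WT females and 903.5 to 9107 in Ftx-/- females. Mesenchyme markers gave 1 higher of 3, from Col1a2 (1.09, adjusted p = 0.0475), with a list mean of 4399 to 5441 in WT females and 5459 to 13170 in Ftx-/- females. The part of these cells in the levels of the members was not tested.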

How the data were processed

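The deposited files held processed intensity per spot, which the authors obtained with Agilent Feature Extraction 11.0.1.1 (per the file headers; 62976 spots per array), from Cy3-labelled RNA on 1-colour arrays. The deposited series table equalled these intensities after rounding. As in the study's methods, intensities of 31 arrays were normalized by quantile-spline, written here after the affy function. Outlier spots were left out, copies of a probe were averaged, log2 values of the 2 arrays of an eye were averaged, and probes above 500 in WT females were kept. Differences were tested with limma 3.58.1 in R 4.3.3 (4 groups, trend, Benjamini-Hochberg), and intervals are 95%. The number of eyes limits the precision, with 3 eyes each in WT females, WT males and Ftx-/Y males. The members and gene lists were chosen with earlier results of these data known. Named genes were every member probe, the 5 most correlated with B2m, up to 4 per list with the largest female difference (adjusted p under 0.05, every mutant eye on 1 side of the WT mean), with the exceptions marked, and the RT-qPCR targets, some of which are not reported here. Alternatives were other normalizations, filters, arrays, spots, samples, slide and replicate blocks, tests and thresholds. Removal of the base-composition trend, single slides and the 3′ against 5′ comparison were chosen after seeing the data. Scripts were tested on simulated data. A WT female numbered 3 was not analysed here.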

Additional observations from a re-analysis of the deposited data

How the results depend on the processing

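The B2m difference in females was 0.62 to 0.89 under 26 alternatives and moved past the spread between eyes under 2: 1.03 with the deposited table, which puts the median of all probes at 0.25 against -0.01 and makes 93.6% of calls higher against 48.0%, and 0.53 with the base-composition trend removed. Leaving out 1 WT or Ftx-/Y eye gave 0.72 to 0.80, and no Ftx-/- eye was left out singly. The B2m difference in males stayed positive and uncalled, at 0.09 to 0.20 with 1 such eye left out.

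The count of other member probes called in females was 6, beside 35.0% of all probes. It became 3 with the deposited table (20.2% of all probes), 0 with slide as a fixed block (0.0783%), 3 with slide as a random block (17.5%), 3 with the mutant females of slide 4 alone (28.9%), 9 with those of slide 3 alone (49.4%), 9 with the 75th percentile (34.4%), 7 with normexp (33.9%), and 3 to 6 with 1 WT or Ftx-/Y eye left out (3 without WT female 1). In males the count of 0 became 2 under the study's threshold and 0 to 1 with 1 WT or Ftx-/Y eye left out (1 without WT male 3). Between the sexes and for the difference of changes, the count stayed at 0 under the 23 alternatives run for them, which left out the study's threshold. At that threshold, of the 18 probes other than B2m, 1 passed between WT females and WT males. Between Ftx-/- females and Ftx-/Y males 0 passed. The share of all probes was not counted there. The 3 X-linked RT-qPCR targets had 3 positive differences, and 1 relative to B2m.

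Replicate numbers did not pair the eyes (correlations of -0.22 to 0.14 in females and -0.16 to -0.03 in males). With a replicate block, the B2m difference was 0.89 in females and 0.15 in males, and 4 other member probes were called in females, beside 23% of all probes, and 0 in males.

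Gapdh A_55_P2088912 turned to 0.10 with the base-composition trend removed. Actb, uncalled at 0.01, turned to -0.18 with the 75th percentile, -0.0172 with the replicate block and -0.0056 with slide 4 alone, and ranged from -0.0217 (without WT female 4) to 0.0577 (without WT female 1) with 1 such eye left out. Of the 6 called probes, Sdha lost its call under 1 of 28 alternatives, the upstream Gusb probe under 3, Tbp under 4, Hprt under 5, Ywhaz under 6 and Gapdh under 10, apart from its turn.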
